A study of Mus musculus with 8 samples.

Results

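The endocardium and the vascular endothelium of the embryonic ventricle were followed through 10 genes in mouse hearts with a cardiomyocyte knockout of Rps19bp1. The genes were given by name, and each was read from its 1 row on a primary chromosome in a table of 52778 rows. Nfatc1 and Npr3 mark endocardium, and the other 8 (Pecam1, Cdh5, Tek, Tie1, Kdr, Flt1, Emcn and Erg) mark endothelium in general. All 10 passed the filter of a mean of at least 1 TPM that left 15541 rows for testing. TPM is a length-corrected share of a library's transcripts, so levels of different genes can be set beside each other. Ventricles of mouse embryos at embryonic day 11.5 were compared by RNA sequencing, with 4 libraries per group. The titles of all 8 libraries name the tissue only as heart. In the conditional knockout group (cKO), Rps19bp1 fl/fl animals carried Xmlc2-Cre +/-, a recombinase that the labels place in cardiomyocytes. The control group is labelled only as control, and a field for genotype reads C57BL/6 WT for all 8 libraries. Libraries are described as biological replicates, and whether each came from 1 embryo or from several is not given in the sources used here.

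Endothelial cells line the vessels, and the endocardium is the endothelium that lines the heart chambers. Vascular endothelial growth factors signal to endothelial cells through the receptors encoded by Kdr and Flt1, and angiopoietins through the receptor encoded by Tek, which works beside its relative Tie1. In the early ventricle the endocardium lies next to the cardiomyocytes and exchanges signals with them during trabeculation, and part of it gives rise to cushion mesenchyme in the valve-forming regions. The Cre of this cross is a cardiomyocyte driver, so the genes described here are read mainly in cells that were not its stated target. In bulk tissue, fewer cells of a type and less RNA per cell cannot be told apart.

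The targeted gene stood at 15.18, 11.76, 13.73 and 19.18 TPM in cKO libraries 1 to 4. Rps19bp1 stood at 40.86, 44.16, 34.69 and 40.05 TPM in control libraries 1 to 4, so the lowered gene fits the group labels in all 8 libraries. The text on extraction speaks of cortical neurons, whereas 20 cardiomyocyte genes summed to between 55643 and 61920 TPM per library and 10 neuronal genes to between 5.48 and 14.15 TPM. The table keeps no read depth, so no counting error can be given, and all errors are those between libraries. Pearson correlations of log2(TPM + 1) between any 2 libraries were at least 0.986.

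Promoter windows of 7 of the 10 genes were found in the RefSeq table of GRCm38.p6, as the 250 bases before each listed transcription start. Erg encodes a factor of the ETS family, and the letters AGGAAG or CGGAAG, searched on both strands, hold the core that ETS factors recognise. Windows of Emcn and Erg are printed to show a promoter with these letters beside one without, 5′ to 3′ on the strand of the gene and with matches in capitals. The window of Emcn is chr3:137340828-137341077 on the plus strand, and that of the first of 3 starts of Erg is chr16:95586594-95586843 on the minus strand.
Emcn: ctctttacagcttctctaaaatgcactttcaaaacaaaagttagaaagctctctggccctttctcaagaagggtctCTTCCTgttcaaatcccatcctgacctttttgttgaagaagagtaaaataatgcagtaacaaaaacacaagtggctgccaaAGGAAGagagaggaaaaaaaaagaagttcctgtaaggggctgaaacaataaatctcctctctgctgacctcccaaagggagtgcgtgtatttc
Erg: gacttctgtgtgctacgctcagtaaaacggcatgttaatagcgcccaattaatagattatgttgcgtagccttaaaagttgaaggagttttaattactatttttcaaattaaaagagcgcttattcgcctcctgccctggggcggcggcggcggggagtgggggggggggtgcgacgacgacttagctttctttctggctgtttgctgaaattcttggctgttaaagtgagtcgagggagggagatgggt

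The matches in Emcn began at positions -174 and -93 from the start, and the printed window of Erg held 0. Tie1 held 2 matches, at -232 and -219, and Flt1 held 2, at -129 and -53, while Tek, Kdr and Npr3 held 0. The printed windows share 16 (Emcn) and 7 (Erg) bases with the gene's own row. Those of the other 5 genes lie partly or wholly inside the gene's own row or an annotated transcript and are not printed. Of the other Erg windows, that of the third start held 1 match. Among 32851 promoter windows of the same length, 39.2% held at least 1 match and 11.3% at least 2. The letters TGATAA or AGATAA, recognised by GATA factors, occurred on either strand in 1 of the 9 windows of these genes and in 16.6% of all windows. A match describes letters and not binding, and the absence of a match says nothing about a factor.

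All 10 genes were well above the filter in every library. In control ventricle the order of levels was Cdh5 (150.5 TPM), Emcn (116.4), Tie1 (113.9), Pecam1 (111.2), Tek (80.08), Npr3 (78.60), Kdr (70.56), Nfatc1 (29.34), Flt1 (26.10) and Erg (17.15), each a mean of 4 libraries. The ranges of Cdh5 and Emcn did not overlap, nor did those of Pecam1 and Tek, of Kdr and Nfatc1, or of Flt1 and Erg. The ranges of Emcn, Tie1 and Pecam1 overlapped between neighbours in this order, as did those of Tek, Npr3 and Kdr, and those of Nfatc1 and Flt1. In cKO, Pecam1 stood next after Cdh5 and Npr3 stood before Tek, and both shifts in order lay among genes whose ranges overlapped. The range of Kdr, which overlapped that of Npr3 in control, lay below those of Npr3 and Tek in cKO.

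**Figure D1:**
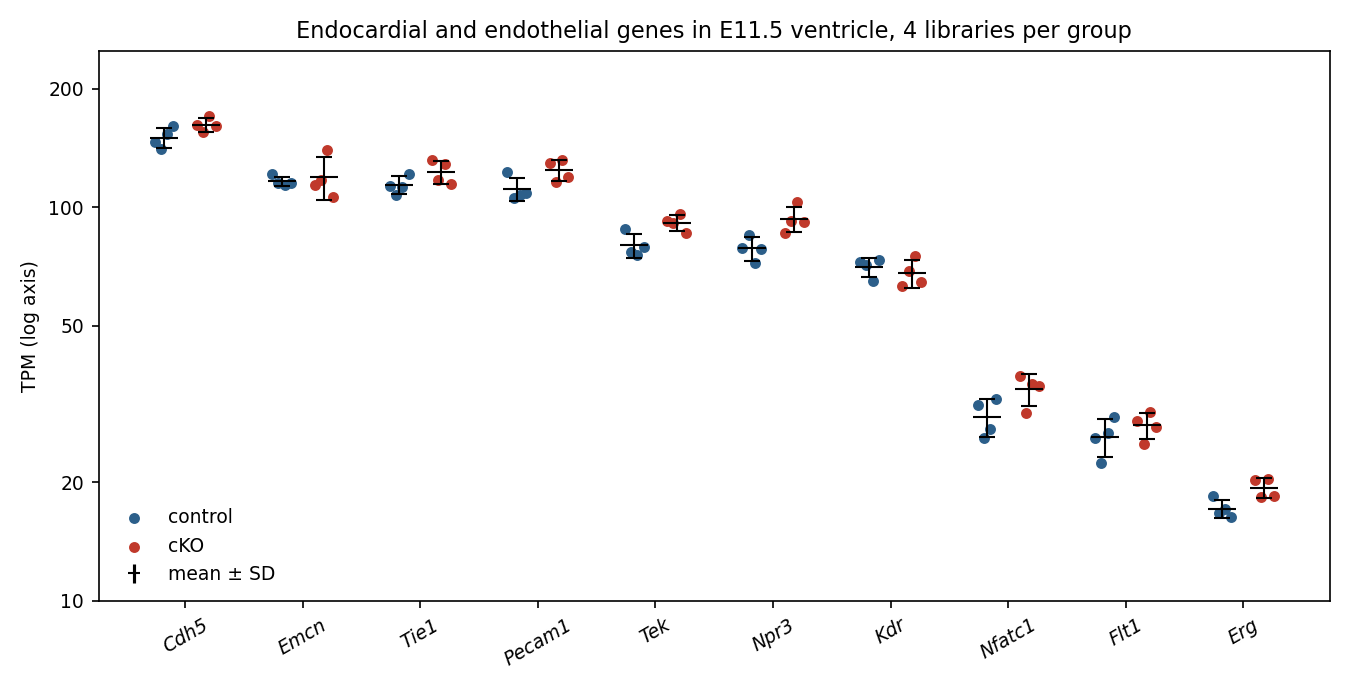
TPM of the 10 genes on a log axis, with 1 point per library, control in blue and cKO in red, and bars for the mean ± SD of 4 libraries. Genes are ordered by their control mean, from Cdh5 at 150.5 TPM to Erg at 17.15 TPM, and in Npr3 alone do the points of the groups not overlap.

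The comparison asks whether the endothelial compartment of the ventricle differs when cardiomyocytes lack Rps19bp1. None of the 10 genes passed limma's test at an adjusted p of 0.05, against 6.40% of all 15541 tested rows. Rows called higher in cKO made up 2.16% and rows called lower 4.23%. The counts over all rows depend on scaling: 33.8% of the calls were higher on TPM as deposited, 50.2% after quantile normalization, 47.8% after median-ratio scaling and 49.5% after rescaling without mitochondrial and globin rows. Of the 10 genes, 9 had a fitted change above 0 and Kdr below 0, and 44.2% of all tested rows were higher in cKO. The median log2 change was 0.13 for the 10 genes and -0.02 for all tested rows. At an unadjusted p under 0.05 stood 5 of the 10 (Npr3, Tek, Erg, Nfatc1 and Pecam1) and 23.7% of all tested rows. The 95% intervals of the changes reached from -0.20 at the lowest to 0.43 at the highest on the log2 scale, that is from 0.871-fold to 1.34-fold. Changes larger than these lie outside the interval of every gene of the set.

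**Figure D2:**
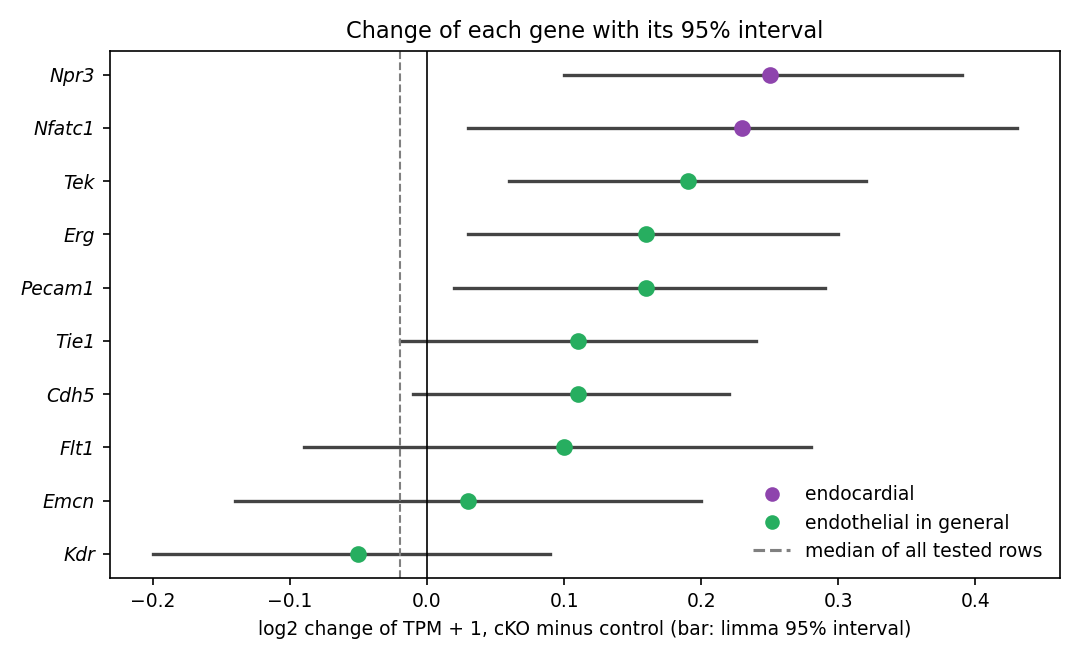
Log2 change of TPM + 1 (cKO minus control) of each gene, with the 95% interval of limma's fit over 8 libraries as a bar, endocardial genes in purple and the others in green. The dashed line is the median of all tested rows (-0.02). Npr3 and Nfatc1 lie farthest to the right at 0.25 and 0.23, and Kdr lies at -0.05.

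Among the adhesion and surface proteins, Pecam1 (chr11:106654213-106715281, minus strand, GRCm38) encodes the cell adhesion molecule CD31, which sits at endothelial cell contacts. Pecam1 stood at 129.3, 116.3, 131.6 and 119.3 TPM in cKO libraries 1 to 4 and at 122.7, 105.9, 107.7 and 108.7 TPM in control libraries 1 to 4. Control library 1 lay above 2 cKO libraries, so the groups overlapped. The mean was 124.1 TPM ± 7.46 in cKO and 111.2 TPM ± 7.71 in control (SD, n = 4), and the fitted log2 difference of 0.16 (SE 0.0614) had a limma adjusted p of 0.157.

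Cdh5 (chr8:104101613-104144504, plus strand) encodes VE-cadherin, the cadherin of endothelial junctions. It was the most abundant of the 10 genes, at 162.2, 155.1, 170.6 and 160.5 TPM in cKO and 146.4, 140.9, 153.7 and 160.8 TPM in control libraries 1 to 4. Control library 4 lay within the cKO range. Its log2 change of 0.11 had a 95% interval of -0.01 to 0.22 (limma adjusted p = 0.25).

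Emcn (chr3:137341062-137431069, plus strand) encodes endomucin, a sialomucin of the endothelial surface that is abundant in endocardium and veins. Emcn stood at 113.7, 117.1, 140.2 and 106.0 TPM in cKO and at 121.4, 115.1, 114.3 and 115.0 TPM in control. The cKO libraries lay on both sides of the control range, with library 3 highest and library 4 lowest of all 8. The spread between cKO libraries (SD 14.7 TPM) was wider than that between controls (SD 3.33 TPM). Its fitted log2 change was 0.03 with a 95% interval of -0.14 to 0.20 (limma adjusted p = 0.870), and it was -0.05 without cKO library 3.

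Of the receptors for vascular endothelial growth factors, Kdr (chr5:75932827-75979072, minus strand) encodes VEGFR2, the main signalling receptor for Vegfa. Kdr stood at 63.12, 68.82, 75.38 and 64.58 TPM in cKO and at 72.59, 71.39, 64.93 and 73.34 TPM in control. Of the 16 pairs of a cKO and a control library, the cKO library was the higher in 5. The fit gave a log2 change of -0.05 and a 95% interval of -0.20 to 0.09 (limma adjusted p = 0.659), and it was 0.00 after quantile normalization.

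Flt1 (chr5:147561604-147726438, minus strand) encodes VEGFR1, which binds Vegfa, Vegfb and placental growth factor and restrains signalling through Kdr. Flt1 stood at 28.71, 25.11, 30.21 and 27.73 TPM in cKO and at 25.97, 22.39, 26.77 and 29.29 TPM in control, and the groups overlapped. On the log2 scale the change was 0.10, with a 95% interval of -0.09 to 0.28 (limma adjusted p = 0.528). It was 0.03 without control library 2, 0.06 without cKO library 3 and 0.15 without control library 4 or cKO library 2. The ratio of Flt1 to Kdr TPM within a library ran from 0.365 to 0.455 in cKO and from 0.314 to 0.412 in control, and these ranges overlapped too.

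Tek (chr4:94739086-94874976, plus strand) encodes TIE2, the receptor for angiopoietins. Tek stood at 92.38, 91.05, 96.42 and 86.19 TPM in cKO and at 88.34, 77.03, 75.57 and 79.38 TPM in control. Control library 1 lay above cKO library 4, and in the other 15 of 16 pairs the cKO library was the higher. The mean was 91.51 TPM ± 4.22 in cKO, 114% of the 80.08 TPM ± 5.73 in control (SD, n = 4). Its log2 change of 0.19 (SE 0.0586) missed the threshold, with a limma adjusted p of 0.0829, which was 0.0433 after quantile normalization.

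Tie1 (chr4:118471191-118489849, minus strand) encodes the related receptor that modulates TIE2 signalling. Tie1 stood at 131.8, 117.4, 128.7 and 114.8 TPM in cKO and at 113.4, 107.4, 112.8 and 121.8 TPM in control, and control library 4 lay above 2 cKO libraries. Its log2 change of 0.11 had a 95% interval of -0.02 to 0.24 (limma adjusted p = 0.289). The ratio of Tek to Tie1 within a library ran from 0.701 to 0.775 in cKO and from 0.652 to 0.779 in control.

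Erg (chr16:95359169-95586600, minus strand) encodes an ETS transcription factor that maintains endothelial identity, and it was the least abundant of the 10. The symbol has a second row on an alternate scaffold, which is listed at 0 in all libraries and was not used. Erg stood at 20.28, 18.35, 20.36 and 18.42 TPM in cKO and at 18.46, 16.69, 17.16 and 16.29 TPM in control. Control library 1 lay just above cKO libraries 2 and 4. The fitted log2 value for Erg was 0.16, with a 95% interval of 0.03 to 0.30 (limma adjusted p = 0.141).

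Npr3 (chr15:11839896-11907837, minus strand) encodes the natriuretic peptide receptor that clears these peptides and lacks a guanylyl cyclase domain. Npr3 stood at 86.28, 92.56, 103.1 and 91.83 TPM in cKO and at 78.82, 85.24, 72.07 and 78.29 TPM in control. Every cKO library lay above every control library, by a margin of about 1 TPM between cKO library 1 and control library 2. This was the 1 gene of the 10 whose groups did not overlap, which over all tested rows held for 5.33% with cKO higher and for 10.3% with cKO lower. The mean was 93.44 TPM ± 7.01 in cKO, 119% of the 78.60 TPM ± 5.38 in control (SD, n = 4). Its log2 change of 0.25 (SE 0.0663) did not pass the threshold (limma adjusted p = 0.0561, exact two-sided permutation p = 0.0286, the smallest that 8 libraries allow). The adjusted p ran from 0.0363 to 0.142 over 18 other settings and was under 0.05 in 3 of them.

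Nfatc1 (chr18:80606205-80713071, minus strand) encodes a calcineurin-dependent transcription factor required for valve formation. Nfatc1 stood at 37.36, 29.95, 35.60 and 35.26 TPM in cKO and at 31.49, 25.97, 27.27 and 32.64 TPM in control. Library 2 was the lowest of its group in both cKO and control, and the groups overlapped through cKO library 2. The mean was 34.54 TPM ± 3.20 in cKO and 29.34 TPM ± 3.22 in control (SD, n = 4), a log2 change of 0.23 with a 95% interval of 0.03 to 0.43 (limma adjusted p = 0.153).

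The fitted changes of Nfatc1 (0.23) and Npr3 (0.25) lay above those of the other 8 genes, which ran from -0.05 to 0.19 with a median of 0.11, and the difference was not tested. Nfatc1 and Tek were level at 2 decimals without cKO library 1 (0.19), without cKO library 4 (0.22) and without control library 2 (0.17). Without cKO library 4 Nfatc1 did not lie above Tek. In the other 17 of 18 settings both endocardial genes lay above the other 8. Emcn, which endocardium also makes in abundance, was at 0.03. Within libraries the endocardial genes kept overlapping proportions to Pecam1. The ratio of Nfatc1 to Pecam1 was 0.278 ± 0.0174 in cKO and 0.264 ± 0.0247 in control (SD, n = 4). The ratio of Npr3 to Pecam1 was 0.754 ± 0.0589 in cKO and 0.709 ± 0.0714 in control. Both pairs of means differed by less than 1 SD of the control libraries.

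The libraries did not contribute alike. The summed level of the 10 genes was 865.1, 831.7, 932.1 and 824.5 TPM in cKO libraries 1 to 4 and 819.6, 767.9, 772.3 and 815.6 TPM in control libraries 1 to 4. Every cKO sum lay above every control sum, with the lowest cKO sum and the highest control sum less than 5 TPM apart. The sums were not tested. Library cKO 3 held the highest value of all 8 for 8 of the 10 genes, and control library 2 held the lowest for 5. Without cKO library 3 the median log2 change of the 10 was 0.11, 8 were higher and 2 instead of 5 had an unadjusted p under 0.05. The same count of 2 was reached without cKO library 1 and without control library 2.

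**Figure D3:**
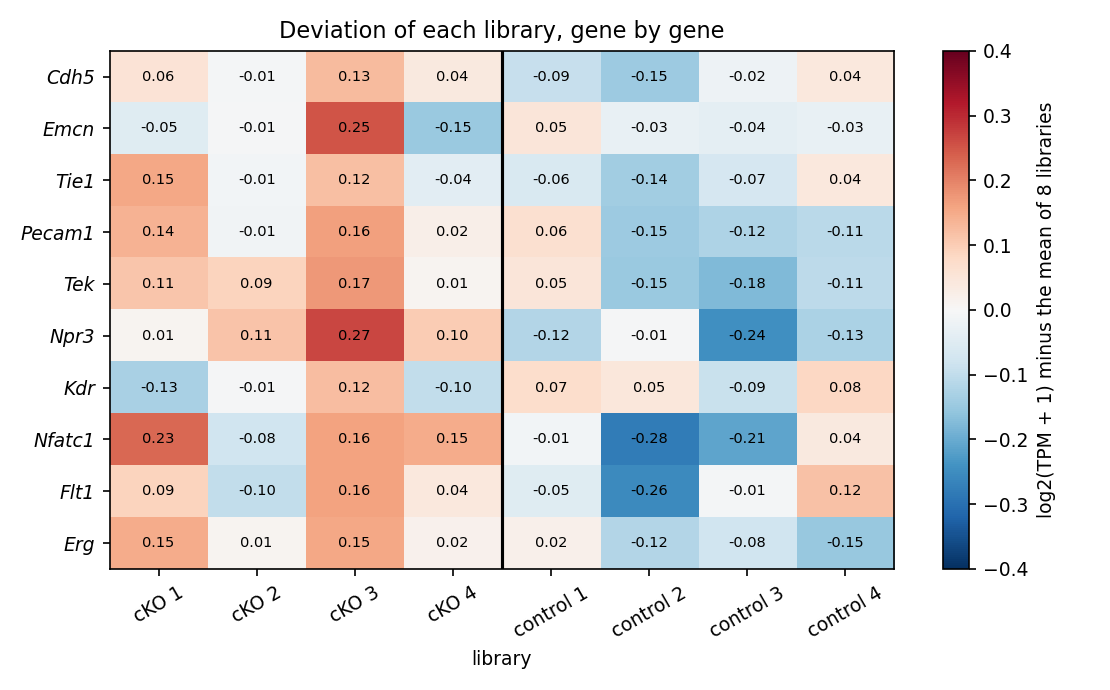
Heat map of log2(TPM + 1) of each gene in each library minus that gene's mean over the 8 libraries, with cKO on the left of the black line and control on the right. The column of cKO 3 is above the mean for all 10 genes and that of control 2 is below it for 9, while cKO 2 lies between -0.097 and 0.113.

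Other measures also differed between the libraries. Mitochondrially encoded rows took 13.2%, 13.2%, 16.2% and 14.1% of TPM in cKO libraries 1 to 4 and between 11.4% and 12.2% in control libraries, and cKO library 3 was the highest in both measures. With TPM rescaled without mitochondrial and globin rows, the median log2 change of the 10 genes was 0.17 and the number called was 0. The cardiomyocyte genes summed to between 55643 and 58837 TPM in cKO and between 56850 and 61920 TPM in control, with a median log2 change of -0.05 over 20 tested genes. The difference between the mean log2 level of the 10 genes and that of the cardiomyocyte genes was -3.99, -4.16, -3.97 and -4.10 in cKO and -4.12, -4.34, -4.25 and -4.15 in control, and the groups overlapped. The part of cell composition in these values was not tested.

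Within groups the 10 genes tended to vary together. After each group's mean was subtracted, 41 of their 45 pairs had a positive correlation over the 8 libraries, with a median r of 0.424. A gene of the set and any other tested row had a median r of -0.0086. The closest pairs were Cdh5 and Flt1 (r = 0.954), Pecam1 and Erg (0.931) and Pecam1 and Tek (0.871). The 4 negative pairs all included Npr3, the lowest with Flt1 (-0.205), while Npr3 and Kdr had an r of 0.848. These values describe 8 libraries that share their scaling, and no test was made of them. Of 27 other endothelial surface genes, such as Cldn5, Esam and Cd34, 27 correlated positively with the mean of the 10, with a median r of 0.485, where all tested rows had a median of -0.00716. The 10 rows most like that mean were Ccdc138, Galnt12, Mdm1, Paqr6, Eda2r, Dnttip1, Pde1c, Cant1, Gab2 and Atp5k-ps2, with r between 0.942 and 0.983 over 8 libraries. None of them was on a list of endothelial or other marker genes used here. They were picked for the highest r among tested rows without Gm or Rik symbols, and their likeness was not tested. Eda2r alone of them passed limma's test between groups (log2 change 2.38, limma adjusted p = 3.9e-06).

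The growth factors and receptors around these genes were examined next. In the VEGF list of 10 ligands, receptors and co-receptors, 0 genes rose and Vegfb alone fell, against 4.23% of all tested rows called lower. The list includes Kdr and Flt1, and its median was 0.00. Vegfb (chr19:6982472-6987651) encodes a ligand of Flt1 that is abundant in heart muscle. Vegfb stood at 141.8, 161.1, 169.0 and 198.9 TPM in cKO and at 234.4, 271.3, 267.5 and 249.9 TPM in control, with every cKO library below every control library. The mean was 167.7 TPM ± 23.7 against 255.8 TPM ± 17.0 (SD, n = 4), or 65.6% of control. Vegfb fell by 0.61 on the log2 scale (SE 0.0931, limma adjusted p = 0.00729), and it was called under all 18 other settings.

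The other VEGF ligands did not pass. Vegfa, the principal ligand of Kdr, stood at 138.9 TPM ± 17.7 in cKO and 135.3 TPM ± 19.0 in control (SD, n = 4), a log2 change of 0.04 with a 95% interval of -0.21 to 0.29. Vegfc (0.05) and Vegfd (0.11), ligands of the lymphatic receptor encoded by Flt4, had limma adjusted p of 0.754 and 0.712. Pgf, placental growth factor, stood at 4.61 TPM ± 0.987 in cKO and 6.47 TPM ± 1.31 in control, a log2 difference of -0.41 (limma adjusted p = 0.148) that was -0.25 with a pseudocount of 5. Over libraries left out in turn, Vegfc ran from 0.01 to 0.13 and Vegfd from 0.02 to 0.23. Among the receptors, Flt4 had a log2 change of -0.02, and the co-receptors Nrp1 and Nrp2 had 0.02 and -0.03. The 95% interval of Nrp1 ran from -0.09 to 0.13, and those of Flt4 and Nrp2 from -0.25 to 0.22 and from -0.19 to 0.12. Changes of Flt4, Nrp1, Nrp2 and Vegfa this close to 0 turned sign under some settings.

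In the angiopoietin and Tie list of 5 tested genes, which include Tek and Tie1, 4 had a change above 0. The median of 0.19 is the value of Tek itself. Angpt1 alone passed the test, against 4.23% of all tested rows called lower. Angpt1 (chr15:42424667-42676977), the activating ligand, stood at 36.54, 43.35, 34.49 and 39.27 TPM in cKO and at 57.88, 55.26, 42.79 and 48.19 TPM in control. Only cKO library 2 reached above a control library, control 3. Angpt1 fell by 0.40 on the log2 scale (SE 0.0996, limma adjusted p = 0.0446), to 75.3% of the control mean. This call is a weak one: it was lost under 12 of 18 other settings, with adjusted p up to 0.144. These include leaving out cKO library 1, 3 or 4 or control library 1, 2 or 4, and over all libraries left out in turn the change ran from -0.48 to -0.33.

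Angpt2, which acts on the same receptor as a context-dependent antagonist, was near the filter at 1.65, 2.19, 1.81 and 1.45 TPM in cKO and 1.35, 1.05, 0.793 and 1.11 TPM in control. Every cKO value lay above every control value, as held for 5.33% of all tested rows. The log2 difference was 0.42 (limma adjusted p = 0.0827), and at this low level it depends on the pseudocount, with 0.68 at a pseudocount of 0.1 and 0.16 at 5. The row, introns included, lies wholly inside Mcph1 on the opposite strand, which had 7.48 TPM in cKO and 9.21 TPM in control. Reads of the pair could be mixed if counting ignored strand, and whether their exons overlap was not examined. The ratio of Angpt1 to Angpt2 within a library ran from 19.1 to 27.1 in cKO and from 43.0 to 53.9 in control, without overlap. Angpt4 stayed at or below 0.209 TPM in all libraries and was not tested. Ptprb, which encodes the phosphatase that opposes TIE2, stood at 15.04 TPM ± 2.76 in cKO and 11.97 TPM ± 2.51 in control (SD, n = 4), a log2 change of 0.31 (limma adjusted p = 0.282). It was 0.16 without control library 2, which was low at 8.23 TPM.

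**Figure D4:**
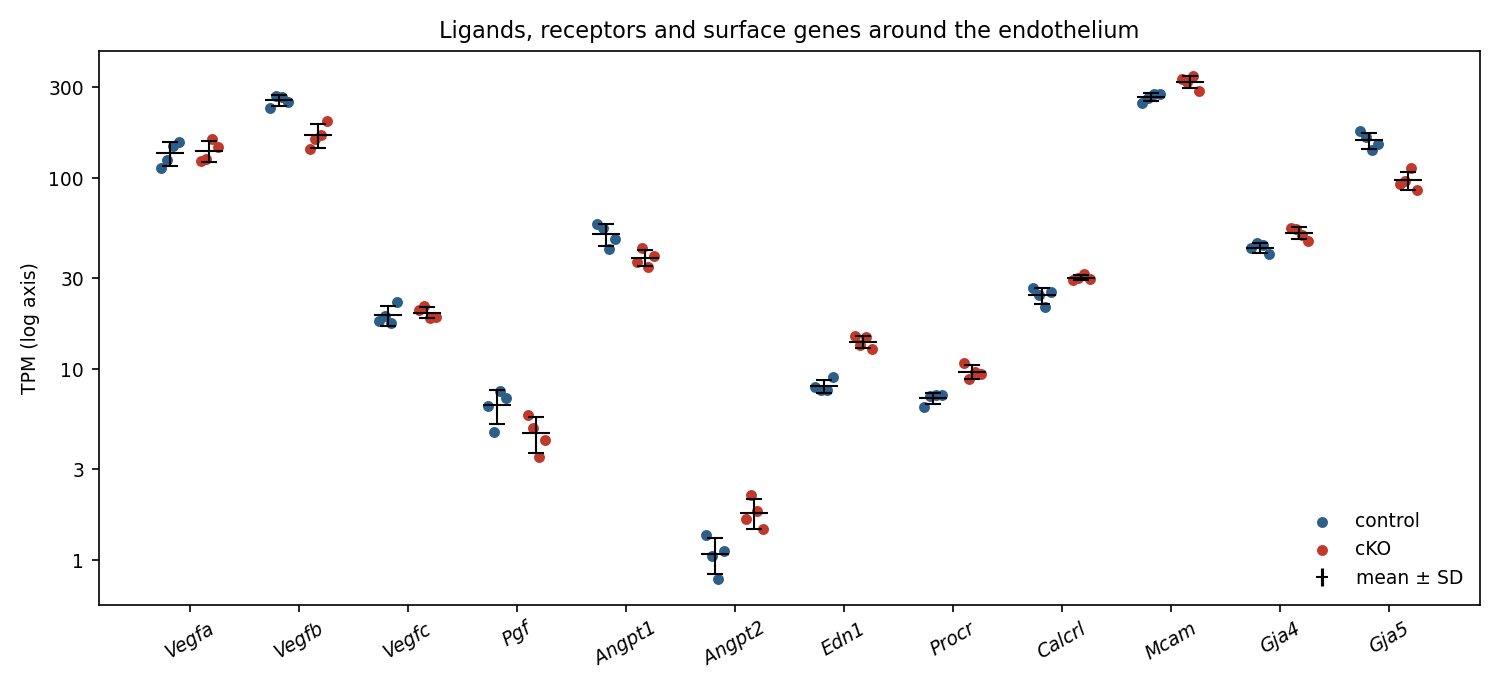
TPM on a log axis of 12 ligand, receptor, surface and gap junction genes, with 1 point per library, control in blue and cKO in red, and bars for the mean ± SD of 4 libraries. All cKO points lie below control for Vegfb and Gja5 and above it for Angpt2, Edn1, Procr, Calcrl, Mcam and Gja4, and the Angpt1 points overlap in 1 library of each group.

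In the list of 16 endocardial genes and signals, 13 had a change above 0 and the median log2 change was 0.17. The 13 include Nfatc1, Npr3 and Emcn, which belong to the 10 genes. Edn1 alone rose, against 2.16% of all tested rows called higher. Edn1 (chr13:42301476-42307990) encodes the precursor of endothelin 1, a peptide made by endothelial cells and by other cells including stressed cardiomyocytes. Edn1 stood at 14.85, 13.35, 14.83 and 12.83 TPM in cKO and at 8.04, 7.79, 7.78 and 9.11 TPM in control, a mean of 171% of control without overlap. Edn1 rose by 0.71 on the log2 scale (SE 0.0742, limma adjusted p = 0.00122), and it was called under all 18 other settings.

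Among 30 junction, adhesion and surface genes of the endothelium, 21 had a change above 0, 3 rose and 0 fell. The median log2 change was 0.11, and the 21 include Pecam1, Cdh5 and Emcn, which belong to the 10 genes. Over all tested rows 2.16% were called higher, and the number of the 30 called ran from 0 to 3 over 18 other settings. Procr, which encodes the endothelial receptor for protein C, rose from 7.05 TPM ± 0.468 in control to 9.70 TPM ± 0.773 in cKO (SD, n = 4), which is 0.41 on the log2 scale (limma adjusted p = 0.0157). Calcrl, which encodes the receptor for adrenomedullin, rose from 24.35 TPM ± 2.35 in control to 30.23 TPM ± 0.996 in cKO (SD, n = 4), which is 0.30 on the log2 scale (limma adjusted p = 0.0331). Mcam, an adhesion molecule that mural cells also make, rose from 266.9 TPM ± 13.8 in control to 320.1 TPM ± 23.8 in cKO (SD, n = 4), which is 0.26 on the log2 scale (limma adjusted p = 0.0395). In all 3 the groups did not overlap, as in 5.33% of all tested rows with cKO higher. The calls of Calcrl and Mcam were each lost under 10 of 18 other settings, including the removal of any library except control 1 for Calcrl (0.24 to 0.35) and any except cKO 4 for Mcam (0.23 to 0.31). Procr was lost under 1, the replicate block (adjusted p = 0.0613).

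Of 20 transcription factors of endothelial identity, 13 had a change above 0, 0 passed the test and 4 had an unadjusted p under 0.05, with a median log2 change of 0.06. After Erg and Nfatc1, the smallest p belonged to Gata2 (0.20, limma adjusted p = 0.156) and Sox7 (0.19, limma adjusted p = 0.174). In the list of 9 NFAT factors and calcineurin genes, 0 passed and 4, Nfatc1 among them, had an unadjusted p under 0.05. Nfat5, the factor of osmotic stress, had a log2 estimate of 0.21 (limma adjusted p = 0.0727) and Nfatc4 of 0.30 (limma adjusted p = 0.139), and in both the groups did not overlap, as in 5.33% of all tested rows. Nfatc4 was at 0.18 without control library 2, which was low at 6.35 TPM. The list median was 0.05.

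Among 14 arterial and Notch genes, 1 rose and 1 fell, with a median log2 change of 0.03, against 2.16% and 4.23% of all tested rows. Gja4, the gap junction gene of arterial endothelium (connexin 37), rose from 43.26 TPM ± 2.43 in control to 51.74 TPM ± 3.76 in cKO (SD, n = 4), which is 0.25 on the log2 scale (limma adjusted p = 0.0451). Its call was lost under 10 of 18 other settings, including the removal of any library except cKO 4 (0.22 to 0.30). Gja5 (connexin 40), which trabecular cardiomyocytes make as well as arterial endothelium, fell from 158.1 TPM ± 15.4 in control to 97.47 TPM ± 11.1 in cKO (SD, n = 4), which is -0.69 on the log2 scale (limma adjusted p = 0.00308). It was called under all 18 other settings. Of 8 venous and lymphatic genes, 7 had a change below 0 and 0 passed, with 1 at an unadjusted p under 0.05 and a median of -0.04. Aplnr, the apelin receptor of venous endothelium, stood at 2.19 TPM ± 0.370 in cKO and 3.27 TPM ± 0.591 in control (SD, n = 4, limma adjusted p = 0.0853), and Lyve1, made by lymphatic endothelium and macrophages, had a difference of -0.25 on the log2 scale (limma adjusted p = 0.328). The Lyve1 value was -0.12 without control library 1 and -0.13 with a pseudocount of 5.

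The natriuretic peptides, the ligands that Npr3 clears, include products of cardiomyocytes. Of 5 tested genes of this family Nppb alone passed the test. Nppb rose from 366.2 TPM ± 45.4 in control to 537.2 TPM ± 110.0 in cKO (SD, n = 4). This is 0.54 on the log2 scale (limma adjusted p = 0.0410). Nppa had a log2 change of 0.44 and missed the threshold (limma adjusted p = 0.0768). The list median of 0.25 is the value of Npr3 itself, and 2.16% of all tested rows were called higher. A second Nppb row on an alternate scaffold is listed at 0 and was not used. The cKO libraries 1 to 4 stood at 459.6, 471.4, 696.9 and 520.8 TPM and the control libraries at 312.0, 404.3, 345.5 and 403.1 TPM, without overlap. The call was lost when any 1 of the 8 libraries was left out (0.41 to 0.61, adjusted p from 0.0507 to 0.105) and under 11 of 18 other settings in all.

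Over the 94 tested genes of these lists other than the 10, 6 were called higher and 3 lower, or 9.57% against 6.40% of all tested rows, and the median log2 change was 0.05. The counts over all rows and over the lists were not compared by a test. Several called genes, among them Vegfb, Nppb and Gja5, are made by cardiomyocytes, and the source of their transcripts was not tested.

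**Figure D5:**
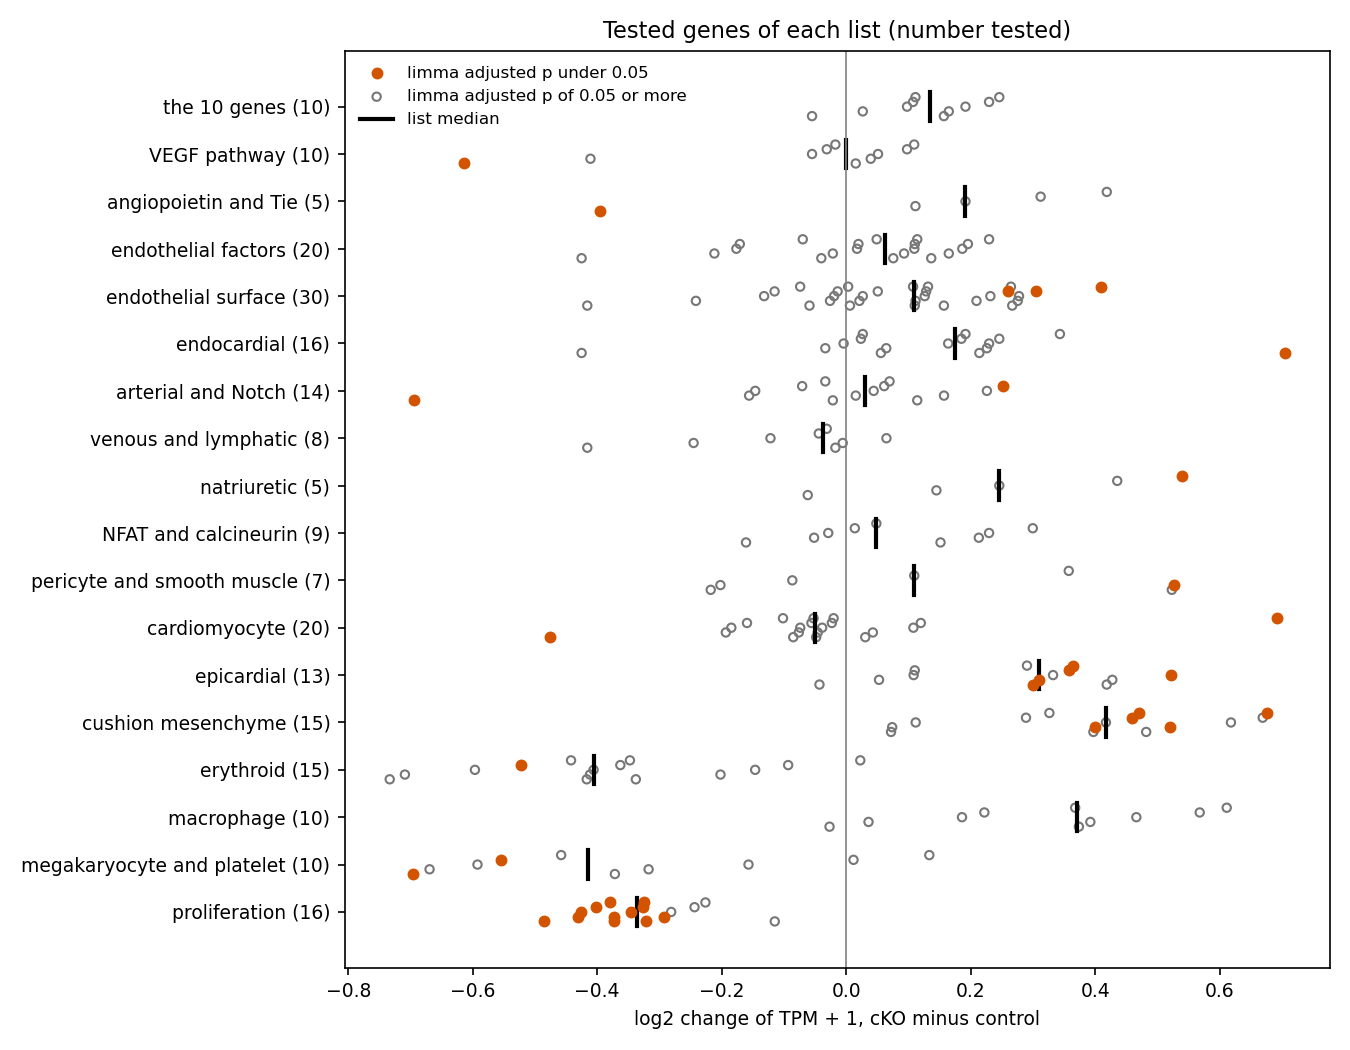
Log2 change of TPM + 1 (cKO minus control) of each tested gene in each list, with genes past an adjusted p of 0.05 in limma's test filled in orange and a black line at the list median. The 10 genes lie between -0.05 and 0.25 with none filled, the epicardial and mesenchymal lists lie to the right, and the erythroid, megakaryocyte and proliferation lists lie to the left. The erythroid median was -0.04 without control library 4.

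Markers of other cells in the ventricle were read in the same libraries, and the called genes named from these lists were named after their values were seen. Over all tested rows 2.16% were called higher and 4.23% lower, and the median log2 change was -0.02. Epicardial genes summed to between 602.0 and 726.3 TPM in cKO and between 531.5 and 596.6 TPM in control, and 5 of 13 rose (Tcf21, Tbx18, Wt1, Upk3b and Lrrn4), with a list median of 0.31. The number ran from 1 to 6 over 18 other settings and was 2 without cKO library 1 or 3 or without control library 1, 2 or 4. Genes of a list drawn up for cushion mesenchyme summed to between 1573.6 and 1733.1 TPM in cKO and between 1135.6 and 1374.9 TPM in control. All 15 had a change above 0 with a median of 0.42, and 5 rose (Col3a1, Col1a2, Dcn, Fbln2 and Pdgfra). That number ran from 1 to 6 over the other settings and was 3 without control library 1. The factors Sox9, Twist1, Snai1, Snai2, Prrx1 and Tbx20 of the same list did not pass. Which cells made the transcripts of this list was not tested. Of 7 tested mural cell genes 1 rose, Notch3 (0.53), with a list median of 0.11. The mural count was 0 without cKO library 1, 2 or 3 or control library 1 or 2. Of 20 cardiomyocyte genes 1 rose, Casq2 (0.69), and 1 fell, Nkx2-5 (-0.48), with a list median of -0.05. These calls are weak: 0 cardiomyocyte genes were called higher when any library except cKO 2 or cKO 4 was left out. Likewise 0 were called lower when any library except cKO 4 was left out.

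Megakaryocytes and platelets express Pecam1 as endothelium does, and 8 of 10 tested markers of these cells had a change below 0, with a median of -0.41. The list summed to between 31.84 and 43.69 TPM in cKO and between 43.49 and 69.48 TPM in control, and 2 genes fell (Itgb3 and Gp1bb). That number ran from 0 to 3 over the other settings. It was 1 without cKO library 1 or 4 or without control library 1, 3 or 4. Macrophage genes summed to between 79.76 and 135.2 TPM in cKO and between 75.89 and 107.0 TPM in control with 0 of 10 called, 1 at an unadjusted p under 0.05 and a median of 0.37. Without cKO library 4, which held the lowest cKO sum, 3 macrophage genes were called higher and the median was 0.56. Under every other setting 0 were called. Erythroid genes summed to between 2121.5 and 4501.8 TPM in cKO and between 2344.2 and 8476.3 TPM in control, and 1 of 15 fell (Tspan33), with a median of -0.41. The highest erythroid sum was that of control library 4. Without that library the erythroid median was -0.04, and 0 erythroid genes passed when any 1 library was left out. Proliferation genes summed to between 1239.2 and 1473.4 TPM in cKO and between 1687.2 and 1876.5 TPM in control, and 12 of 16 fell against 4.23% of all tested rows, with a median of -0.34. The number was 8 after quantile normalization, 10 with median-ratio scaling and 11 after rescaling, settings that also lowered the count over all rows. It was 6 without control library 1 or 3 and 7 without control library 4, and ran from 6 to 12 over the 18 settings. No epicardial, mesenchymal, mural, macrophage, erythroid or megakaryocyte marker found in the table was at 0 in all libraries, and 2 of 10 neuronal genes were. The part of these cells in the values of the 10 genes was not tested.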

How the data were processed

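RNA sequencing of 8 libraries of mouse ventricle, 4 cKO and 4 control, was read from 1 table of TPM values deposited by the authors, with 1 column per library and 52778 rows. Per the submitters' processing notes the reads were handled with FastQC, Trim Galore 0.6.7, HISAT2 2.2.1, StringTie 2.2.1, featureCounts and DESeq2 on GRCm38, with no roles stated. The annotation and the use of strand are not given in the sources used here. TPM keep no depth, so no count test, counting interval or detection floor was used, and precision is that between libraries. The labels' texts differ on the library kit, naming both a stranded mRNA kit and depletion of ribosomal RNA.

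Groups came from the treatment label and replicate numbers from the titles. Rows with a mean of at least 1 TPM over the 8 libraries were tested as log2(TPM + 1) with limma 3.58.1 in R 4.3.3 (group as the only term, moderated variances following a trend with mean level, two-sided), adjusted by Benjamini-Hochberg over all 15541 rows, with a threshold of 0.05. On this scale the fold changes of low genes are understated. For single genes an exact permutation test (two-sided) used all 70 ways to assign 4 of the 8 libraries to cKO. Alternatives covered the pseudocount, the filter, scaling, the variance model, array weights, a replicate block and each library left out. The procedure was tested on simulated data whose errors were independent between rows. Shared variation between rows, as described for the 10 genes, was not simulated. Gene lists carry no test here and are described by counts of calls and by medians. The 10 genes and the lists were chosen with earlier results of these data known. Named genes are the 10, Rps19bp1, all VEGF and angiopoietin list genes, and in each other endothelial list the called genes or, with none called, the 2 with the smallest p. Start and end of the named rows equal those of RefSeq GRCm38.p6. Sequences of 7 of the 10 promoters were matched by symbol in that build, with matches searched on both strands, and sequence of Nfatc1 was not used. A comparison of protein sequences that had been planned was not made. Figures were drawn with matplotlib 3.10.9.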

Additional observations from a re-analysis of the deposited data

Results flagged for a closer look

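Of 72 groups of 4 libraries examined (36 named genes in 2 groups), 6 had 1 library standing apart from the other 3 by more than Dixon's 95% critical value, and chance flags about 1 group in 20. Control library 1 stood apart in 3 of them. In Pecam1 it held 122.7 TPM where the other controls held 105.9 to 108.7, and in Emcn it held 121.4 TPM where the others held 114.3 to 115.1. In Procr it held 6.35 TPM where the others held 7.23 to 7.33. Control library 2 stood low in Ptprb (8.23 TPM against 12.92 to 13.59) and in Nfatc4 (6.35 TPM against 9.20 to 9.47). Library cKO 1 stood high in Sox7, at 27.64 TPM against 25.33 to 25.67. Without control library 1 the median log2 change of the 10 endocardial and endothelial genes was 0.15 and the number called was 0.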

How the results depend on the processing

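Over 18 other settings, 174 of 180 values of the 10 genes kept their direction and side of the threshold, 4 passed it and 2 turned sign. The number of the 10 called was 1 at a filter of mean TPM 5 and with array weights (Npr3 both times) and 2 after quantile normalization (Tek and Npr3), and it was 0 in the other settings, every library left out in turn included. The median of the 10 ran from 0.11 to 0.18. Sign changes were Kdr (0.00 after quantile normalization), Emcn (-0.05 to 0.08 over libraries left out), Vegfa (-0.01 with array weights, -0.04 to 0.11 over libraries left out), Flt4 (0.01 with median-ratio scaling, 0.02 rescaled without mitochondrial and globin rows, -0.11 to 0.04 over libraries left out), Nrp1 (-0.02 to 0.04) and Nrp2 (0.00 rescaled, -0.07 to 0.01). The cause was not tested.

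Over all tested rows 994 were called, 336 higher and 658 lower. Without a filter on low values 347 were called (140 and 207, with more rows tested) and without a variance trend 609 (371 lower). Lower calls numbered 380 after quantile normalization, 419 with median-ratio scaling and 396 after rescaling. Leaving out 1 library gave 388 to 936 calls, 153 to 339 of them higher and 228 to 597 lower; the count was 400 and 420 without cKO libraries 1 and 3 and 388, 445, 412 and 565 without control libraries 1 to 4. With the replicate block 420 were called (179 higher and 241 lower), 0 of the 10 among them. Deviations of same-numbered libraries had correlations of -0.0107, 0.0674, 0.0576 and -0.0891, and cKO libraries 2 and 3 alone correlated best with the control of their own number, so the numbers are not taken to pair embryos. Depth is unknown, so what it limits could not be stated.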
